A study of Mus musculus with 24 samples.

Results

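The testis-specific serine kinases Tssk1, Tssk2, Tssk3, Tssk4 and Tssk6 and the calcium/calmodulin-dependent kinase Camk4 were followed as transcripts through 2 enriched fractions of male mouse germ cells, pachytene/diplotene spermatocytes and round spermatids. The 6 genes were taken by symbol, with 1 row each among the 55536 rows of the count table, and all 6 passed the filter on low counts in every fit. The males were Ago413+/+ (wild-type), Ago413+/- (heterozygous) or Ago413-/- (null) and 10 to 15 weeks old, on a C57BL/6J background. The deletion was made in 129 embryonic stem cells and is constitutive. Lost are Ago1 and parts of Ago4 and Ago3, neighbouring Argonaute genes on chromosome 4. For each preparation the testes of 2 to 5 mice were pooled and the fractions were separated by sedimentation in a BSA gradient, with a purity above 70% asked of a fraction, so a library is a pool of mice and may hold RNA of other germ cell stages. The study's methods give a higher purity for the round spermatid fractions than for the spermatocyte fractions. Of 24 libraries, 3 are called outliers in the labels and were left out, which left 10 of spermatocytes (4 of wild-type males, 3 of heterozygotes, 3 of nulls) and 11 of round spermatids (3, 4 and 4). Total counts ranged from 12825105 to 29749058 per library.

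Male germ cells pass from meiosis, as spermatocytes, to the haploid round spermatid and then reshape into sperm. The TSSK family comprises small serine/threonine kinases whose transcripts are found almost exclusively in the testis and mostly after meiosis. In mice, deletion of Tssk1 and Tssk2 together or of Tssk6 leaves males infertile. CAMK4 is a nuclear kinase of the calcium/calmodulin cascade. It is switched on by an upstream kinase, phosphorylates the transcription factor CREB and has been linked to the phosphorylation of protamine 2, a sperm chromatin protein.

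Tssk1 and Tssk2 are neighbours on the forward strand of chromosome 16 (GRCm38). Tssk1 (ENSMUSG00000041566) is a single exon of 3700 bases at chr16:17894223-17897922 and Tssk2 (ENSMUSG00000045521) is a single exon of 1388 bases at chr16:17898637-17900024, with 714 bases between them. They are close copies, and 170 of their 31-base words are identical, which is 12.5% of the words of Tssk2 and 4.63% of those of Tssk1. A read that lies wholly in such a stretch would not align uniquely, and how many reads this touched was not tested.

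RefSeq promoter windows (GRCm38.p6) matched 5 of the 6 members, and for 3 of them the bases just before the RefSeq start that lie in no annotated exon are shown, 5′ to 3′ on the forward strand, to set the neighbours Tssk1 and Tssk2 side by side. Capitals in Tssk1 and Tssk2 mark the octamer TGACTTCA, or its reverse complement TGAAGTCA, and the longest run that both windows share. The stretch of Tssk4 is printed for comparison and holds neither.
Tssk1: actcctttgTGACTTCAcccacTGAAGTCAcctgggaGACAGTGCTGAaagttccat
Tssk2: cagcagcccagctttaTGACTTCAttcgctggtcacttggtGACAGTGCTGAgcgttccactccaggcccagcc
Tssk4: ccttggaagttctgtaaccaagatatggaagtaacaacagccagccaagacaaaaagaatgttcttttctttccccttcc

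The stretches are chr16:17894146-17894202 (57 bases), chr16:17898563-17898636 (74 bases) and chr14:55650104-55650183 (80 bases). The octamer begins 48 bases before the start of Tssk1, is repeated there on the opposite strand 28 to 35 bases before the start, and begins 58 bases before the start of Tssk2. On either strand it was found in 1.31% of 32851 windows of 250 bases before a start. The shared run of 11 bases begins 20 bases before the start in Tssk1 and 33 bases before it in Tssk2. It was picked as the longest match of these windows, so its presence in both was fixed by the search. Of the 32851 windows 6 hold it, both of these included, and how many would by chance was not tested. The palindromic cyclic AMP response element TGACGTCA, the site of CREB and CREM proteins, was in none of the 5 windows and in 1.55% of all windows. Its first letters TGACG were in the Tssk6 window alone of the 5, 69 to 73 bases before the start, against 17.8% of all windows on either strand. The letters TATAAA were in none of the 5 and in 12.4% of all. The octamer was absent from the windows of Tssk3, Tssk4 and Tssk6. Whether any of these letters bear on transcript levels was not tested. These are matches of letters, and the octamer was chosen after the windows had been read.

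Tssk3 (ENSMUSG00000000411, chr4:129489014-129491022, reverse strand) has 2 exons with 1280 bases and lies 3.02 Mb from Ago1, on the chromosome that carries the deletion. Tssk4 (ENSMUSG00000007591, chr14:55650184-55652539) has 3 exon blocks with 1717 bases and 7 transcripts. Tssk6 (ENSMUSG00000047654, chr8:69902184-69903518) is a single exon of 1335 bases, of which 375 are also exon of Ndufa13 on the opposite strand. Dgcr2 likewise overlaps Tssk1 by 63 bases on the opposite strand. The libraries were strand-specific, but which strand was counted is not given in the sources used here.

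Camk4 (ENSMUSG00000038128, chr18:32934931-33191228) has 16 exon blocks with 3259 bases and overlaps an antisense gene by 72 bases. The same gene gives rise to calspermin, a shorter testis transcript that encodes a calmodulin-binding protein without the kinase domain. The counts are per gene and cannot tell the 2 products apart.

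Levels are CPM (counts per 1000000 counts of the library, after TMM scaling), and library values are listed in the order of their replicate numbers, which for wild-type spermatocytes are 1, 2, 4 and 5 and for wild-type round spermatids 1, 2 and 4. The lowest count of any member in any library was 543, for Camk4, so counting error was small beside the spread between pools. In the wild type the markers followed the fraction labels. Summed over 8 spermatocyte genes (such as Sycp3 and Hormad1), the level was 920.5 to 1873 CPM in wild-type spermatocytes and 527 to 699 in wild-type round spermatids, and 7 of the 8 were called lower in the round spermatids. Summed over 6 elongating spermatid genes (protamines, transition proteins, Odf1 and Oaz3), it was 3804 to 8925 CPM in wild-type spermatocytes and 23755 to 34139 in wild-type round spermatids, with 6 of 6 called higher. In the spermatocyte libraries of all genotypes this sum was never below 3804 CPM, so spermatid transcripts were present there too. Sertoli, Leydig and macrophage genes summed to 65.3 to 355, 2.69 to 17.2 and 2.96 to 24.4 CPM over the 21 libraries, and Lyz2 was at 0 in all wild-type spermatocyte libraries. In wild-type round spermatids 3 of 5 spermatogonia, 2 of 5 early round spermatid and 4 of 6 macrophage genes were called higher, and 0 of 5 Sertoli and 0 of 4 Leydig genes. Of the spermatocyte genes, 1 of 8 was called lower in heterozygous and 4 of 8 in null round spermatids, and at an unadjusted p under 0.05 it was 7 of 8 in the wild type, 7 of 8 in heterozygotes and 6 of 8 in the null. The direct tests of a genotype effect between fractions called 0 of these 8, and 6 of 6 elongating spermatid genes were called higher in both mutants. In null round spermatids 2 of 5 Sertoli genes were called higher, in heterozygous ones 1 of 4 Leydig genes was called lower, and macrophage genes (4 of 6) and early round spermatid genes (1 of 5) were called higher in each. The part of these markers in the members' rises was not tested. Ago1 had 0 counts in every null library and 32 to 122 in every other library used.

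Per kilobase of exon, Tssk2 was the highest of the 6 genes and Camk4 the lowest in all 6 groups. In wild-type spermatocytes the level per kilobase was 218 ± 51.6 CPM for Tssk2 (SD, n = 4), 136 ± 55.7 for Tssk6, 111 ± 28.98 for Tssk3, 74.8 ± 22.2 for Tssk4, 70.7 ± 15.8 for Tssk1 and 12.4 ± 3.41 for Camk4. Tssk2 was above Tssk6 in 4 of 4 of these libraries, while Tssk6 was above Tssk3, and Tssk4 above Tssk1, in only 2 of 4, so these neighbours did not differ beyond their spread. Among wild-type round spermatids the order was Tssk2 with 548 ± 51.1 CPM per kilobase (n = 3), Tssk6 with 512 ± 189.7, Tssk3 with 327 ± 65.9, Tssk1 with 125 ± 11.7, Tssk4 with 102 ± 16.4 and Camk4 with 30.3 ± 3.88. Tssk2 exceeded Tssk6 there in 2 of 3 libraries, and each later gene in the order exceeded the next in 3 of 3. The same order held for the means of heterozygous and null round spermatids, where the weakest steps were Tssk2 above Tssk6 in 3 of 4 libraries of each group and Tssk1 above Tssk4 in 3 of 4 heterozygous libraries.

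**Figure D1:**
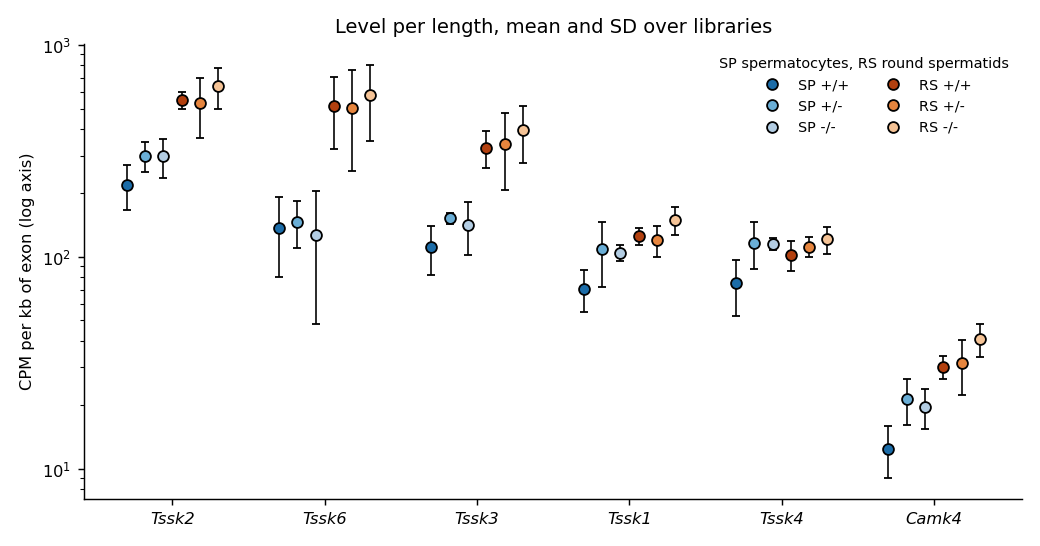
Level per kilobase of exon (CPM per kb, log axis) of the 6 genes, with the mean and SD over libraries of spermatocytes (SP, blue) and round spermatids (RS, orange) of each genotype, dark to light from Ago413+/+ to Ago413-/-. Tssk2 lies highest and Camk4 lowest in all 6 groups, and Tssk6 stands at 136 ± 55.7 in wild-type spermatocytes and 512 ± 189.7 in wild-type round spermatids.

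The first comparison asked how the kinases differed between the meiotic and the haploid fraction within a genotype. In the wild type 5 of the 6 were called higher in round spermatids, by edgeR at an adjusted p under 0.05 and a log2 fold change beyond 0.5 in either direction, against 12.7% of all genes tested. Tssk6 rose most and Tssk1 least of the 5, and Tssk4 did not pass. DESeq2 also called 5 higher (background 12.9%), and in 5 all round spermatid libraries lay above all spermatocyte libraries (background 17.3%). The median log2 fold change was 1.31 for the 6 genes and 0.02 for all genes tested. In bulk fractions a change in the share of cells that carry a transcript and a change in transcript per cell cannot be told apart.

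Tssk6 encodes a kinase needed in spermatids for the packaging of DNA by protamines. It measured 229, 249, 84.9 and 162 CPM in the 4 wild-type spermatocyte libraries and 974, 564 and 511 CPM in the 3 wild-type round spermatid libraries. All round spermatid values were more than the highest spermatocyte value, and both groups were widely spread. The difference was 3.77-fold (log2 1.91, SE 0.42, edgeR adjusted p = 0.00233). Heterozygous libraries held 217, 229 and 140.1 CPM in spermatocytes and 1143, 435, 428 and 695 CPM in round spermatids. Null libraries held 282, 151 and 74.1 and 1131, 899, 612 and 447 CPM. Neither genotype showed an overlap, and Tssk6 rose 3.46-fold in the heterozygotes (edgeR adjusted p = 0.0122) and 4.57-fold in the null (edgeR adjusted p = 0.0021).

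Tssk3 encodes a spermatid kinase needed for male fertility. Wild-type spermatocyte libraries held 152, 167, 87.2 and 162 CPM and wild-type round spermatid libraries 510.3, 344 and 403 CPM, with no overlap. The rise was 2.95-fold (log2 1.56, SE 0.27, edgeR adjusted p = 0.000586). The corresponding values were 194, 183 and 206 against 661, 280.3, 330.5 and 473 CPM in heterozygotes. They were 239, 159.6 and 146 against 695, 562, 421 and 350.0 CPM in the null. Each round spermatid library was again above each spermatocyte library of its genotype, and the edgeR adjusted p was 0.0106 for the 2.24-fold rise of heterozygotes and 0.00142 for the 2.79-fold rise of the null.

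Tssk2 and Tssk1 encode partner kinases that bind the substrate TSKS in elongating spermatids. Tssk2 measured 308, 341, 201 and 362 CPM in wild-type spermatocytes and 809, 679 and 794 CPM in wild-type round spermatids. The groups were far apart, and Tssk2 rose 2.51-fold (log2 1.33, SE 0.23, edgeR adjusted p = 0.000558). It also rose in heterozygotes, from 394, 360.3 and 489.6 to 987, 507, 574 and 884 CPM (1.78-fold, edgeR adjusted p = 0.0267). In the null it went from 506, 399 and 333 to 1089, 999, 763 and 687 CPM (2.14-fold, edgeR adjusted p = 0.00279). The lowest heterozygous round spermatid value was just above the highest heterozygous spermatocyte value, and the heterozygous call held in 7 of 14 alternatives. It was lost, for example, without round spermatid replicate 1 (edgeR adjusted p = 0.114) and with a block on consecutive library numbers.

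Tssk1 measured 241, 251, 209 and 345 CPM in wild-type spermatocytes and 429.8, 445 and 511 CPM in wild-type round spermatids. Its rise of 1.77-fold was called (log2 0.82, SE 0.19, edgeR adjusted p = 0.0038). The heterozygous fractions overlapped, with 343, 306 and 560.2 against 465, 355, 425 and 530.4 CPM, and the difference of 1.10-fold did not pass (95% interval 0.831 to 1.46, edgeR adjusted p = 0.727). Null libraries held 421, 384 and 356 against 643, 608, 476 and 487 CPM without overlap, and the 1.43-fold difference missed the threshold (edgeR adjusted p = 0.0723).

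Tssk4 encodes a kinase that phosphorylates ODF2, a protein of the sperm tail fibres. It measured 109.7, 108, 110.5 and 185 CPM in wild-type spermatocytes and 143, 189 and 193 CPM in wild-type round spermatids, and the groups overlapped, with replicate 5 of the spermatocytes apart from its group at 185. The 1.36-fold difference did not pass (95% interval 1.04 to 1.79, edgeR adjusted p = 0.089). Without that library it was called (log2 0.68, edgeR adjusted p = 0.00479). Heterozygous values were 175, 167 and 258 against 194, 161, 201 and 209 CPM and null values 207, 182 and 201 against 239.9, 227, 175 and 188 CPM. Both pairs overlapped, with folds of 0.957 (95% interval 0.727 to 1.26) and 1.05 (95% interval 0.799 to 1.39).

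Camk4 measured 38.7, 43.9, 26.3 and 52.9 CPM in wild-type spermatocytes and 97.9, 86.3 and 112 CPM in wild-type round spermatids. No values overlapped, and the rise was 2.44-fold (log2 1.28, SE 0.23, edgeR adjusted p = 0.000736). The heterozygous fractions overlapped at 60.8, 58.4 and 88.4 against 127, 70.8, 83.01 and 128 CPM, and the 1.48-fold difference did not pass (edgeR adjusted p = 0.148). In the null the level went from 76.3, 65.9 and 49.1 to 159, 147, 112 and 114 CPM, a called rise of 2.09-fold (edgeR adjusted p = 0.00434).

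**Figure D2:**
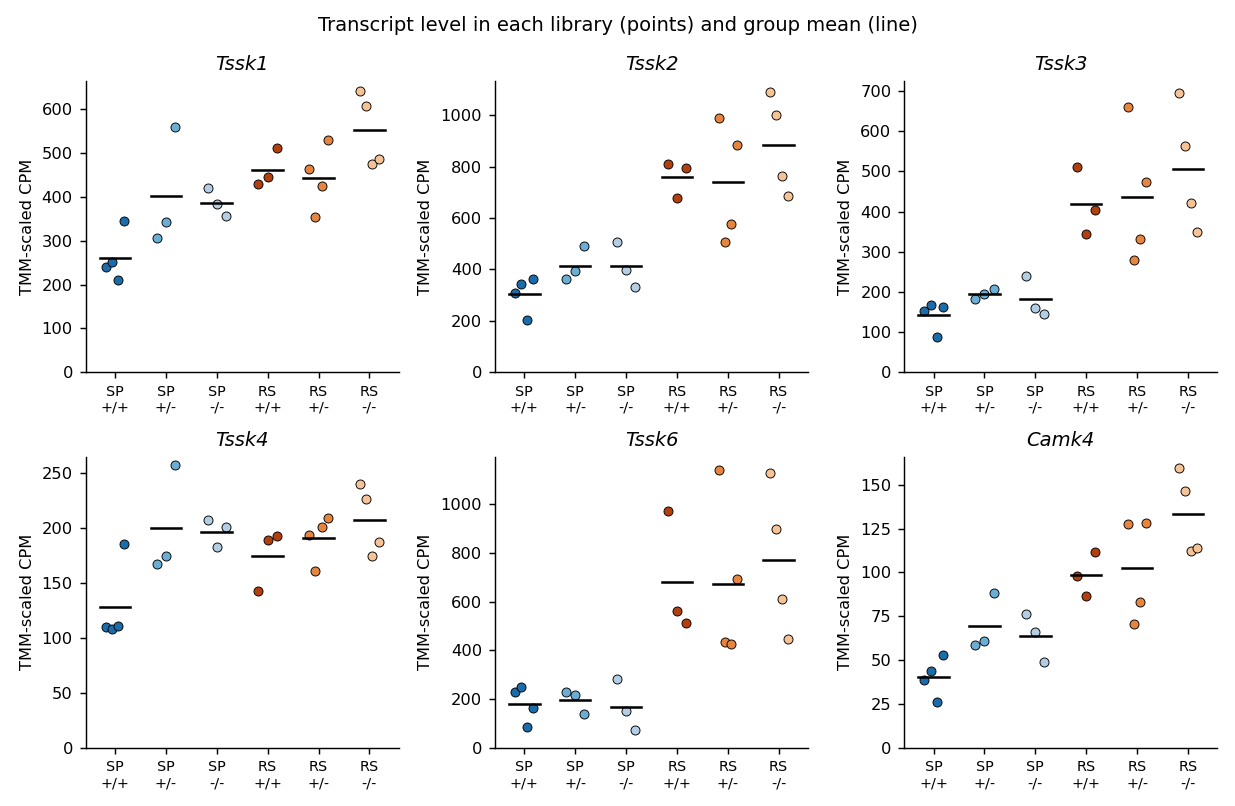
CPM of each gene (linear axes from 0) in each library of spermatocytes (SP) and round spermatids (RS) of the 3 genotypes, with points for libraries in order of library number and a line for the group mean. Tssk6, Tssk3 and Tssk2 separate the fractions in every genotype, while Tssk4 covers 108 to 185 CPM in wild-type spermatocytes and 143 to 193 CPM in wild-type round spermatids.

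Counted by genotype, 3 members were called higher in round spermatids of heterozygotes (background 7.07%) and 4 in those of the null (background 11.7%). DESeq2 also called 3 (background 8.04%) and 4 (background 12.4%). All round spermatid libraries lay above all spermatocyte libraries for 3 members in heterozygotes (background 10.9%) and for 5 in the null (background 18.7%). When the 3 outlier libraries were added, no member was called in the wild type or the heterozygotes, with edgeR adjusted p of 0.063 to 0.0688 for the 5 wild-type members, and the 4 null calls remained. Of all genes tested, 0 were called in the wild type and in heterozygotes under that alternative. The library labelled wild-type round spermatid replicate 3 held less of 5 of the 6 transcripts than the one labelled wild-type spermatocyte replicate 3, for example 117 against 343 CPM of Tssk6. The heterozygous calls also fell to 0 without round spermatid replicate 1. Of all genes tested, 877 of 20373 were then called higher, against 1443 of 20404 with that library.

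**Figure D3:**
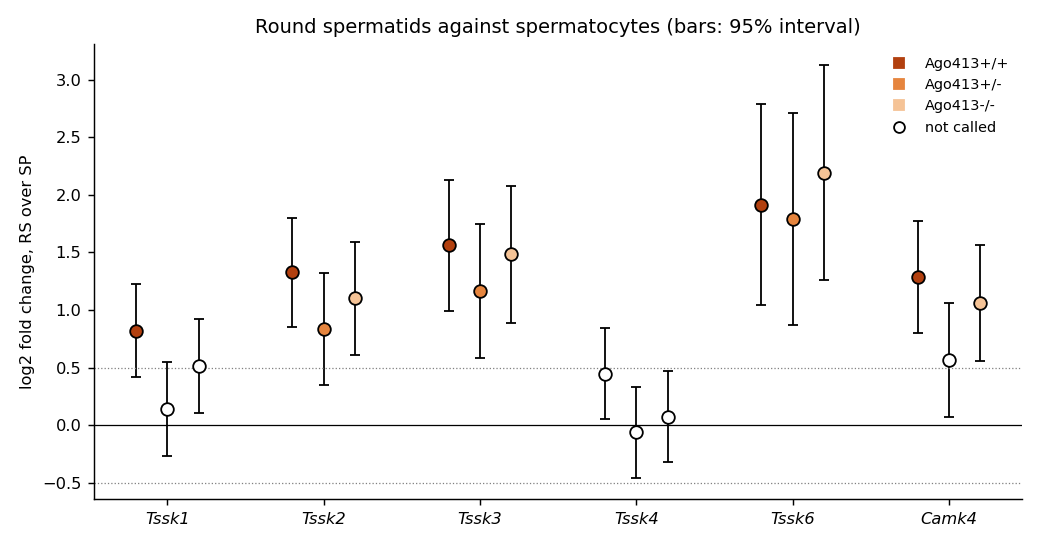
log2 fold change of round spermatids over spermatocytes for each gene and genotype, with 95% intervals. Filled points were called, open points were not, and dotted lines mark the fold change threshold. Tssk6 shows the largest values, 1.79 to 2.19, and Tssk4 the smallest, -0.06 to 0.45.

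Within a library the balance between members also differed by fraction. The ratio of Tssk6 to Tssk4 CPM was 2.09, 2.31, 0.768 and 0.875 in wild-type spermatocytes and 6.82, 2.98 and 2.64 in wild-type round spermatids. It ranged from 0.544 to 1.37 against 2.13 to 5.89 in heterozygotes, and from 0.369 to 1.36 against 2.38 to 4.72 in the null. No round spermatid library fell among the spermatocyte libraries of its genotype. The ratio of the neighbours Tssk2 to Tssk1 was 1.28, 1.36, 0.959 and 1.05 in wild-type spermatocytes and 1.88, 1.53 and 1.55 in wild-type round spermatids, and the fractions were likewise apart in heterozygotes, at most 1.18 against at least 1.35, and in the null, at most 1.20 against at least 1.41. The ratios were not tested.

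The members differed in how single libraries ranked. Within each of the 6 groups, the library highest in Tssk1, in Tssk4 and in Camk4 was the one with the highest sum of 5 early round spermatid genes (Acrv1, Spaca1, Tex36, Sun5 and Cstl1), in 6 of 6 groups each. For Tssk2, Tssk3 and Tssk6 this was so in 4, 3 and 2 of 6 groups. The early round spermatid sum did not separate the fractions, at 473 to 880 CPM in wild-type spermatocytes and 694 to 1052 CPM in wild-type round spermatids. Its fractions overlapped in heterozygotes and in the null too. The highest Tssk6 library was the highest in the elongating spermatid sum in 4 of 6 groups and the lowest was the lowest in 5 of 6. The highest library of Tssk2 and of Tssk3 was also the highest in that sum in 4 of 6 groups each. Wild-type spermatocyte replicate 4, for example, had the least Tssk6, 84.9 CPM, and the lowest elongating spermatid sum, 3804 CPM. The part of cell composition in the members' levels was not tested.

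**Figure D4:**
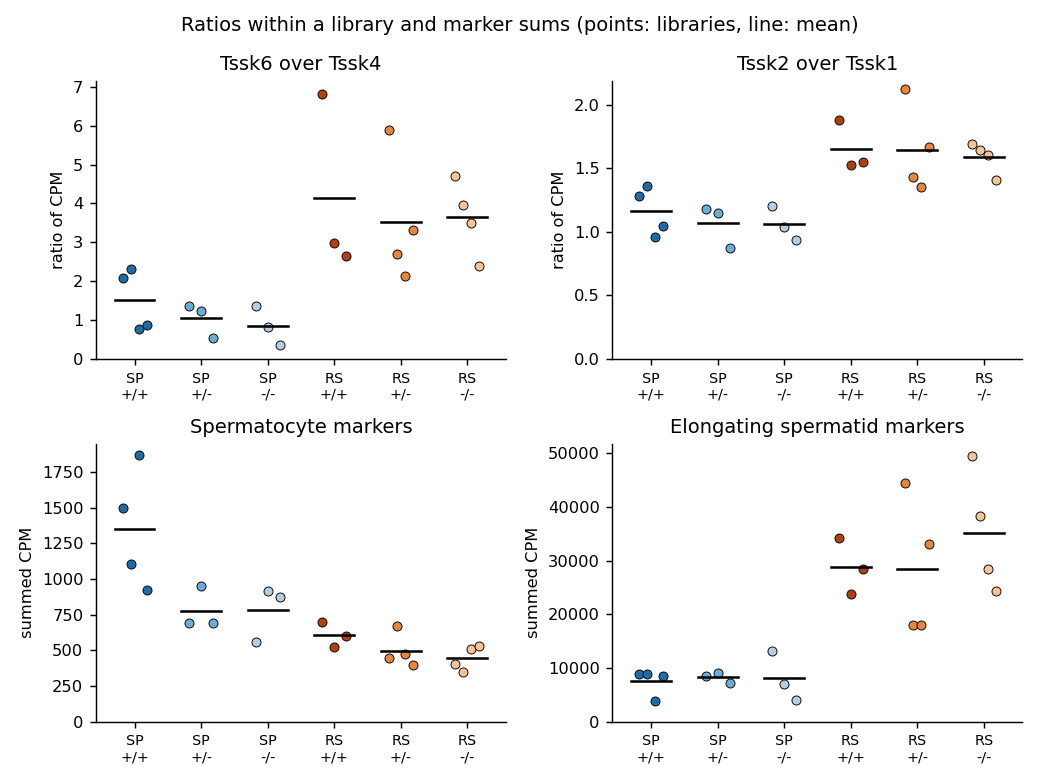
Ratios of CPM within each library (upper row, Tssk6 over Tssk4 and Tssk2 over Tssk1) and summed CPM of 8 spermatocyte and 6 elongating spermatid marker genes (lower row) in spermatocytes (SP) and round spermatids (RS) of the 3 genotypes, with points for libraries and a line for the mean. The Tssk6 over Tssk4 ratio lies at 0.768 to 2.31 in wild-type spermatocytes and 2.64 to 6.82 in wild-type round spermatids, and the spermatocyte marker sum is highest in wild-type spermatocytes.

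The genotype comparison in spermatocytes asked whether loss of the Argonaute genes altered the kinases during meiosis. No member was called by edgeR in null against wild-type spermatocytes (background 0.0411%) nor in heterozygous against wild-type spermatocytes (background 0.0257%). At an unadjusted p under 0.05, 3 members differed in the null (background 30.4%) and 4 in heterozygotes (background 24.6%), all higher than in the wild type. DESeq2 called 0 in the null (background 15.6%) and 1, Camk4, in heterozygotes (background 6.31%). Every library of the mutant group was above every wild-type library for Tssk1 in the null (background 13.2%) and for Tssk3 and Camk4 in heterozygotes (background 6.44%). The median log2 fold change of the 6 members was 0.52 in the null and 0.58 in heterozygotes, against -0.03 and 0.07 for all genes tested.

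Camk4 had the largest difference in both. Of the null libraries, at 76.3, 65.9 and 49.1 CPM, 1 lay below the wild-type maximum of 52.9 CPM, and the log2 fold change was 0.67 (95% interval 0.13 to 1.21, edgeR adjusted p = 0.101). For heterozygotes it was 0.81 (95% interval 0.28 to 1.35, edgeR adjusted p = 0.125, DESeq2 adjusted p = 0.0422). Tssk4 differed by 0.63 in the null (edgeR adjusted p = 0.0875) and 0.68 in heterozygotes (0.128). Tssk1 differed by 0.58 in the null (edgeR adjusted p = 0.104) and 0.67 in heterozygotes (0.128). Tssk2 and Tssk3 had smaller values, 0.46 and 0.37 in the null and 0.49 and 0.49 in heterozygotes. Tssk6 was near 0, at -0.08 (95% interval -0.97 to 0.80) in the null and 0.15 in heterozygotes.

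One wild-type library bears on these values. Spermatocyte replicate 5 was the highest wild-type library for Tssk1, Tssk2, Tssk4 and Camk4 and the highest in the early round spermatid sum, 880.0 CPM against 473 CPM in the lowest wild-type library. That sum was 694 to 1052 CPM in wild-type round spermatids, so it overlapped between the fractions. Without replicate 5, the 3 members Tssk1, Tssk4 and Camk4 were called higher in the null (log2 0.76, 0.88 and 0.84, edgeR adjusted p = 0.0267, 0.00779 and 0.033), and the same 3 in heterozygotes. Of all genes tested, 13.9% were then called higher in the null and 10.8% in heterozygotes, so the change without that library was not limited to the members. In the wild type the early round spermatid sum was 491, 573, 473 and 880.0 CPM, against 828, 724 and 1504 CPM in heterozygotes and 1049, 839.8 and 936 CPM in the null. The spermatocyte sum was 1496, 1104, 1873 and 920.5, 949, 693 and 692 and 558, 916 and 874 CPM. All wild-type libraries were above all null libraries in the spermatocyte sum, while the other groups overlapped in these sums. None of the 8 spermatocyte and 5 early round spermatid genes was called in either comparison, and 1 of 5 spermatogonia genes was called higher in heterozygotes. At an unadjusted p under 0.05, 5 of the 8 spermatocyte genes were lower and 4 of the 5 early round spermatid genes higher in the null, and 4 and 4 in heterozygotes. The spermatogonia sum separated both mutants from the wild type, at 15.7 to 22.8 CPM in the wild type, 44.4 to 57.3 CPM in heterozygotes and 28.00 to 50.2 CPM in the null. Of 3 macrophage genes tested, 2 were higher in the null and 1 in heterozygotes at an unadjusted p under 0.05, and the sum of 6 overlapped, at 2.96 to 4.67 CPM in the wild type, 3.73 to 7.15 CPM in heterozygotes and 4.01 to 9.55 CPM in the null. The part of these markers in the members' differences was not tested.

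The 2 comparisons share the wild-type libraries as controls. Null set against heterozygous spermatocytes gave log2 fold changes of -0.23 to -0.03, with 0 members called by edgeR (background 0.00514%), 0 by DESeq2 (background 0.0206%) and 0 at an unadjusted p under 0.05 (background 3.74%).

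**Figure D5:**
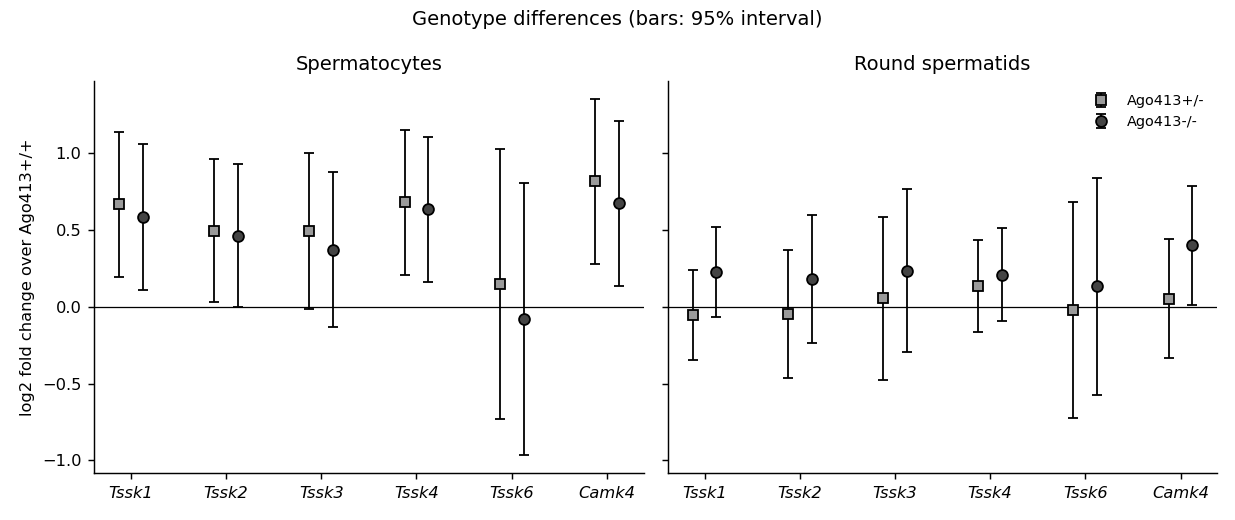
log2 fold change over Ago413+/+ of heterozygous (squares) and null (circles) spermatocytes (left) and round spermatids (right) for each gene, with 95% intervals. None was called by edgeR. The spermatocyte values lie between -0.08 and 0.81 and the round spermatid values between -0.05 and 0.40.

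Between genotypes in round spermatids, edgeR called 0 members in null against wild-type (background 0.0518%), 0 in heterozygous against wild-type (background 0.0207%) and 0 in null against heterozygous round spermatids (background 0.00518%). DESeq2 also called 0 in each (background 3.64%, 0.0363% and 0.104%). At an unadjusted p under 0.05 there were 1, 0 and 1 members (background 19.3%, 8.88% and 7.67%). The one of the null against the wild type was Camk4, with 159, 147, 112.5 and 114 against 97.9, 86.3 and 111.5 CPM. All null libraries were above all wild-type ones (background 9.09%), the nearest only just, and the log2 fold change was 0.40 (95% interval 0.01 to 0.79, edgeR adjusted p = 0.245). The macrophage sum also separated these groups, at 14.8 to 21.1 CPM in the null and 9.99 to 13.5 CPM in the wild type. At an unadjusted p under 0.05, 4 of 6 macrophage and 3 of 5 early round spermatid genes were higher and 2 of 8 spermatocyte genes lower in the null, none of them called, and their part in the difference was not tested. The null libraries numbered 53 and 59 were above those numbered 83 and 89 for every member, at 147 to 159 against 112 to 114 CPM of Camk4. The one of the null against heterozygotes was Tssk1, with a log2 fold change of 0.28 (edgeR adjusted p = 0.647). The other members differed from the wild type by 0.13 to 0.23 in the null, and all 6 by -0.05 to 0.13 in heterozygotes.

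Whether genotype acted differently in the fractions was tested directly. No member was called for the null (background 0.0%) or the heterozygous effect, and DESeq2 called 0 of all genes in both. At an unadjusted p under 0.05 there were 0 members for the null (background 5.95%) and 2 for the heterozygotes (background 7.72%). These were Camk4, whose heterozygous log2 difference was lower in round spermatids by -0.72 (SE 0.33, edgeR adjusted p = 0.637), and Tssk1, by -0.68 (SE 0.27, edgeR adjusted p = 0.637).

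Genes that work with the TSSK kinases were described as a list of 10, all tested. The fraction comparison called 3 higher and 1 lower in the wild type, against 12.7% and 11.4% of all genes tested. It called 3 and 1 in heterozygotes (background 7.07% and 1.82%) and 4 and 1 in the null (background 11.7% and 5.42%). Tsks, the substrate that TSSK1 and TSSK2 share, rose 2.89-fold in the wild type (edgeR adjusted p = 0.000435), from 353 ± 80.3 CPM (SD, n = 4) to 1020 ± 146 CPM (n = 3). Odf2, the tail fibre substrate, rose 1.94-fold (0.000717) and Pdpk1, an activating kinase upstream of many others, 1.88-fold (0.000482). Tsks, Odf2 and Pdpk1 were also called higher in heterozygotes and in the null. Hsp90aa1, an HSP90 chaperone gene, fell in all 3 genotypes, by 1.11 on the log2 scale in the wild type (edgeR adjusted p = 0.00317). Tsacc, a co-chaperone of TSSK6, was called in the null only, at 1.93-fold against 1.61-fold in the wild type. The direct test of the null effect between fractions did not pass for Tsacc (log2 0.26, edgeR adjusted p = 0.914).

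No gene of that list was called in any comparison between genotypes. The smallest unadjusted p in null against wild-type spermatocytes belonged to H2afx, the histone variant that TSSK6 phosphorylates, and to Tssk5, a further TSSK gene. H2afx was at 16.2 ± 0.798 CPM in the null (n = 3) and 35.9 ± 11 CPM in the wild type (n = 4; log2 -1.12, edgeR adjusted p = 0.0599). Tssk5 was at 48.4 ± 9.24 and 19.4 ± 12.3 CPM (log2 1.33, edgeR adjusted p = 0.0599). In round spermatids the same pair had the smallest p, with log2 values of -0.71 and 0.56 that did not pass.

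The list of the Camk4 pathway held 12 genes, all tested. In the wild type 3 were called higher in round spermatids, Prm2, Kif17 and Fhl5, and 3 lower, among them Calm2, against 12.7% and 11.4% of all genes tested. Prm2, the protamine linked to CAMK4, rose 3.95-fold (edgeR adjusted p = 0.00205). Kif17, a kinesin that moves the CREM coactivator out of the nucleus, rose 2.53-fold (0.000435), and Fhl5, that coactivator, rose 1.85-fold (0.00527). Calm2, a calmodulin gene, fell by 1.56 on the log2 scale (0.00104). Crem, the spermatid activator, was chosen for mention after its values were seen and stood at 237 ± 43.3 CPM in wild-type spermatocytes and 238 ± 19.3 CPM in wild-type round spermatids (log2 0.00). Heterozygotes had 2 called higher, Prm2 and Kif17, and the null 3, Prm2, Kif17 and Fhl5, with 0 lower in both, where the backgrounds were those given for the TSSK list.

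None of the 12 was called between genotypes. In null against wild-type spermatocytes Calm2 had 299 ± 116 against 729 ± 249.9 CPM (log2 -1.26, edgeR adjusted p = 0.0599) and Kif17 479 ± 10.4 against 303 ± 40.7 CPM (log2 0.68, edgeR adjusted p = 0.0636). In null against wild-type round spermatids the smallest p-value was that of Fhl5 (log2 0.46, edgeR adjusted p = 0.144).

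Of 9 genes of other calmodulin-dependent kinases 7 were tested, since Camk1 and Camk2a had 106 and 65 counts over all libraries. Camk2b, a subunit of CaM kinase II, and Camkv, a relative without kinase activity, were called higher in wild-type round spermatids, at 3.23-fold (edgeR adjusted p = 0.00839) and 2.44-fold (0.00148), with 7.33 and 7.65 CPM there against 98.6 CPM of Camk4. Camkv was also called in heterozygotes and Camk2b in the null, where its groups overlapped. None was called between genotypes. Of 6 other germ cell kinases, Stk31 was called lower in wild-type (log2 -2.01, edgeR adjusted p = 0.000482) and in null round spermatids (log2 -1.06, 0.0189), Haspin, which phosphorylates histone H3, higher in heterozygous ones (log2 0.58, 0.0065), and none between genotypes.

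For each member, the genes with the most similar profile were found over 21 libraries among 16064 genes with a mean of at least 1 CPM, as the smallest root mean square difference between centred log2 CPM profiles. These likenesses are descriptions, and all libraries share the same fraction contrast. The nearest to Tssk6 were Azin2 (0.084 log2 units), Spem1 (0.104) and Prm2 (0.111). Tssk3 was nearest to 1700009N14Rik (0.094), Odf1 (0.095), a gene of the tail outer dense fibres, and 2810408A11Rik (0.105). For Tssk2 they were Cdc14b (0.087), Irgc1 (0.094) and Rbm4b (0.097), and for Tssk1 Gm15873 (0.073), BC049762 (0.079) and Aptx (0.085). Tssk4 was nearest to Spag6 (0.068), a protein of the sperm axoneme, Kcne3 (0.075) and Stambpl1 (0.085). Camk4 was nearest to Aif1 (0.118), Asb9 (0.123) and Dnajc5b (0.126). Among the members themselves the closest pair was Camk4 and Tssk2 (0.145 log2 units) and the most distant Tssk4 and Tssk6 (1.10), while the neighbours Tssk1 and Tssk2 were 0.338 apart.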

How the data were processed

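Poly(A) RNA of each fraction was made into strand-specific libraries and sequenced as paired reads. Per the submitters' processing notes and methods, reads were trimmed with Trim Galore, aligned to mm10 with STAR and counted per gene by STAR. The authors deposited raw counts, without normalization, for 24 libraries. The strand counted and the annotation release are not given in the sources used here. All 55536 identifiers matched GENCODE M21.

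Genes that reached 10 counts in 3 or more libraries were tested together in edgeR 4.0.16 under R 4.3.3 (quasi-likelihood test, TMM scaling). A call needed a p-value under 0.05 after Benjamini-Hochberg adjustment and a log2 fold change beyond 0.5 in either direction. Genotypes were compared within each fraction (19450 genes tested in spermatocytes and 19310 in round spermatids), and fractions and their interaction with genotype in 1 fit of 21 libraries (20404 genes). DESeq2 1.42.0, scaling, filter, outlier libraries, replicate blocks, a term for library number and leaving out each library were alternatives. The code was tested on simulated counts. Totals of 12825105 to 29749058 counts per library give a limit of at most 0.234 CPM for a count of 0, which covers counting error only. Replicates are pools of animals, and p-values measure the spread between pools. Both fractions can come from the same preparation, and the labels do not say which libraries do. Of the pairs with consecutive library numbers, 8 of 9 correlated above 0.1. The main fraction tests treated all libraries as independent. Over 37 pairs of libraries within a group the chi-square statistic per gene was 9.75 to 179, so none was a repeat deposit.

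Members and gene lists were chosen with earlier results of these data known. Named genes were the 6 members, up to 4 called genes per list and comparison by absolute log2 fold change or, where none was called, up to 2 of the smallest unadjusted p, and the 3 nearest profiles per member. The values of 1 listed gene are not reported here. Samples with the same label number did not pair. The correlation of their deviations was above 0.1 in 4 of 7 spermatocyte and 0 of 10 round spermatid pairs.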

Additional observations from a re-analysis of the deposited data

Results flagged for a closer look

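Of 18 checks of a member in a group of 4 libraries, 1 had a library far from the others by Dixon's criterion. Tssk4 in wild-type spermatocytes was at 185 CPM in replicate 5, while replicates 1, 2 and 4 lay between 108 and 110.5 CPM. Chance flags about 1 in 20 such groups. The library's number among those of the study is 78, while the other 3 are numbered 30, 36 and 42. Its sum of early round spermatid genes, 880.0 CPM, was also the highest of the group. Groups of 3 libraries were not checked.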

How the results depend on the processing

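The direction of the called fraction differences of Tssk2, Tssk3, Tssk6, Tssk1 and Camk4 was kept under every alternative run. The counts of members called depended on the choices as follows, and the causes were not tested. In null against wild-type spermatocytes 0 members became 3 without a filter on low counts, and 0 to 3 when single libraries were left out. In heterozygous against wild-type spermatocytes 0 became 1 with DESeq2, 3 without the filter, and 0 to 3 when single libraries were left out. In both, the 3 appeared without wild-type spermatocyte replicate 5. In round spermatids against spermatocytes, the 5 wild-type calls became 0 with the outlier libraries added. The 3 heterozygous calls became 0 with the outlier libraries, 1 when only the 2 groups were fitted, and 0 to 3 when single libraries were left out. With only the 2 groups, 481 of 18774 genes were called higher, against 1443 of 20404 in the main fit. Null calls numbered 3 to 4 when single libraries were left out, Camk4 being lost without null spermatocyte replicate 3 (edgeR adjusted p = 0.0513). Over all genes, null against wild-type spermatocytes had 8 calls by edgeR, 3026 by DESeq2, 2623 without the filter and 4526 without wild-type replicate 5, and heterozygous against wild-type spermatocytes 5, 1228, 1481 and 2966. The fits without the filter tested 34461 genes in spermatocytes. Null against wild-type round spermatids had 10 calls by edgeR and 702 by DESeq2.

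A replicate block on the label numbers, which do not pair the samples, gave 0 members called in all 6 genotype comparisons and 6, 3 and 4 in the fraction comparisons of wild type, heterozygotes and null. That block called 687 of 19450 genes in null against wild-type spermatocytes. Between fractions it called 3319, 1436 and 2516 of 20404 genes higher, against 2601, 1443 and 2392 in the main fit. In the wild type Tssk4 was added (log2 0.68, edgeR adjusted p = 0.0075). Blocking on consecutive library numbers, where 8 of 9 pairs correlated above 0.1 and the lowest was -0.14, gave 5, 2 and 4, Tssk2 being the heterozygous call that was lost. Of 20404 genes, 2600, 1080 and 2321 were then called higher. Both blocks gave 0 for the interactions.

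Results turned their sign in 61 repeats, all of differences that were not called. With a term for library number Tssk6 turned to 0.085 (null) and -0.053 (heterozygous) against wild-type spermatocytes and to 0.14 in null against heterozygous spermatocytes. Without the filter Tssk2 and Tssk4 turned to 0.029 and 0.019 in null against heterozygous spermatocytes, and Tssk6 to 0.030 in heterozygous against wild-type round spermatids. There the outlier libraries turned Tssk1, Tssk2 and Tssk6 to 0.016, 0.15 and 0.29, and the label block turned Tssk2 and Tssk6 to 0.0028 and 0.083. The outlier libraries also turned the interactions of Tssk2, Tssk3 and Camk4 with the null to 0.18, 0.41 and 0.19, and that of Tssk6 with the heterozygotes to 0.31.

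Leaving out single libraries gave these log2 ranges where the sign turned. In null against wild-type spermatocytes Tssk6 ranged from -0.71 to 0.28, and in heterozygous against wild-type from -0.022 to 0.34. In null against heterozygous spermatocytes the ranges were -0.24 to 0.22 for Tssk1, -0.24 to 0.11 for Tssk2, -0.41 to 0.019 for Tssk3, -0.15 to 0.17 for Tssk4, -0.86 to 0.13 for Tssk6 and -0.33 to 0.067 for Camk4. In heterozygous against wild-type round spermatids they were -0.14 to 0.029, -0.24 to 0.087, -0.24 to 0.21, -0.027 to 0.21, -0.42 to 0.30 and -0.092 to 0.18 in the same order of genes. Tssk6 ranged from -0.086 to 0.47 in null against wild-type and -0.041 to 0.55 in null against heterozygous round spermatids. Between fractions Tssk1 and Tssk4 ranged from -0.026 to 0.43 and -0.18 to 0.14 in heterozygotes and Tssk4 from -0.0027 to 0.15 in the null. For the interactions the ranges were -0.27 to 0.17 (Tssk3) and -0.079 to 0.86 (Tssk6) with the null and -0.50 to 0.22 (Tssk6) with the heterozygotes.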
